A study of Homo sapiens with 4 samples.

Results

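The integrated stress response genes described here were 10 genes chosen by symbol, and all 10 were found among the 26601 symbols listed in every library. They are the transcription factors ATF4, ATF5, DDIT3 (the protein CHOP) and CEBPG, the regulators PPP1R15A, TRIB3, DDIT4 and SESN2, and the enzymes CHAC1 and ASNS. The RNA came from MOLM-13, an established human cell line of acute myeloid leukaemia that carries an MLL fusion gene and an activating FLT3 duplication. The control group was 2 untreated libraries, and both groups were labelled day 4. The other group was 2 libraries of cells given doxycycline (1 mg/ml, as labelled) for 4 days, in which the series title names GADD45g, which stress induces and which can activate p38 and JNK kinase signalling, as overexpressed. The design text calls the libraries of a group biological replicate experiments. Whether the untreated cells carried the same construct, the promoter behind it and the number of clones are not stated in the labels. Since only the GADD45g libraries received doxycycline, an effect of the drug and an effect of the gene cannot be told apart.

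In the integrated stress response, any of 4 kinases phosphorylates the translation initiation factor eIF2. General protein synthesis then slows, while the ATF4 messenger, which carries short upstream reading frames, is translated better. ATF4 protein pairs with other basic leucine zipper proteins, CEBPG and CHOP among them, and drives genes for amino acid supply, for the recovery of translation and, under prolonged stress, for cell death. Because much of this control acts on translation, the level of the ATF4 messenger is not a measure of ATF4 protein. Blocking mitochondrial protein synthesis, a known property of doxycycline, is among the triggers of this response known from other cells.

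The element that ATF4 dimers are known to bind is the C/EBP-ATF response element (CARE). Its core, TGATGNAA, was searched on both strands of the promoter windows of RefSeq (GRCh38.p14), each running from 250 bases before to 50 bases after an annotated start. The palindromic cyclic AMP response element (CRE, TGACGTCA) and the AP-1 element (TGANTCA) were searched in the same way, because ATF and JUN family proteins are known to bind them; no match to one of them can lie within a match to another. All 10 genes had at least 1 window, 18 in all. CARE was found in 3 of these genes, ASNS, CHAC1 and CEBPG, and in 4.46% of the 27305 genes of the table. CRE was found in PPP1R15A alone of the 10 and in 2.25% of the table's genes. AP-1 was found in ATF5 and DDIT3 and in 9.37% of the table's genes. A gene with more windows has more room for a match. Counted by window, CARE was in 3 of the 18 and in 3.62% of the table's 35116. CRE was in 1 of the 18 and in 1.85%, and AP-1 in 3 of the 18 and in 7.71%. Windows of 1 gene can overlap and hold the same match. The following stretches, 60 bases each, show these matches in capitals, written 5′ to 3′ on the strand of the gene. They are shown so that the genes with the known ATF4 element can be followed through the measurements.
ASNS: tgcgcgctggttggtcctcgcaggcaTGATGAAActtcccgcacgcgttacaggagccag
CHAC1: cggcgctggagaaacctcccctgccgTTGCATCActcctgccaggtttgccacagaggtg
CEBPG: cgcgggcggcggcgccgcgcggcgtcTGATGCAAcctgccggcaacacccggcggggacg
PPP1R15A: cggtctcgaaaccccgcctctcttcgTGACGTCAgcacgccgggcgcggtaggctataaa
DDIT3: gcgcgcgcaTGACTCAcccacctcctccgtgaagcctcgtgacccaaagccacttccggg
ATF5: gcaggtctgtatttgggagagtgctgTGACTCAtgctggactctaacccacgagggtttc
The ASNS stretch lies at chr7:97872443-97872502 on the minus strand, and its match begins 68 bases before the start. The CHAC1 stretch is chr15:40953236-40953295 on the plus strand, with the match, CARE read on the opposite strand, 209 bases before the start. The CEBPG stretch is chr19:33374045-33374104 (plus, 42 bases before the start) and the PPP1R15A stretch chr19:48872337-48872396 (plus, 58 bases before). The DDIT3 stretch is chr12:57520705-57520764 (minus, 241 bases before) and the ATF5 stretch chr19:49928692-49928751 (plus, 188 bases before). A match is a description of the letters, and a window without one says nothing about elements farther from the start.

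The libraries had 15683931 to 18895469 reads, as recovered from the values, and GADD45G stood at 3236 and 2118 RPKM after induction against 10.5 and 0.289 RPKM in the controls. RPKM are reads scaled to gene length and to library size, so levels of different genes are comparable per length. The 10 myeloid markers together reached 1349 and 1034 RPKM in the controls and 465 and 423 RPKM after induction. Such a sum follows its most abundant genes and does not show that most markers fell. The median log2 change of the 8 tested markers was -0.19, near that of all tested genes, and 6 of them were not called. Of the 8 tested, LYZ (lysozyme) fell, with a 4.00-fold lower mean (limma adjusted p = 0.000326), and ITGAM (CD11b) rose, with a 1.78-fold higher mean (0.0268; lost with no filter on low values and without control 1, induced 1 or induced 2). The part of these marker changes in the results was not tested. PTPRC, CD33 and SPI1 were at 12.5 RPKM or more in every library, while MPO, a granule enzyme of many myeloid leukaemias, was at 0.162 to 0.278 RPKM. FLT3, the receptor that MOLM-13 is known to depend on, was at only 0.958 and 1.19 RPKM in the controls and at 0.0889 and 0.0451 RPKM after induction. PTPRC, SPI1, MPO and FLT3 were named after their values were seen. The 11 epithelial and fibroblast markers together reached 40.2 RPKM in control 1 and 40.1 RPKM in induced 1. Their sum was 0.169 and 0.410 RPKM in control 2 and induced 2, the libraries whose titles carry a suffix and are called replicate 2 here. The epithelial sum thus differed between replicates and was near equal between the groups. Its part in the results was not tested. Over 10771 tested genes the median change in log2(RPKM + 1) was -0.21, and 4185 genes passed the threshold (limma, adjusted p under 0.05).

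After induction PPP1R15A, DDIT4 and SESN2 rose, with means 3.20-fold to 3.48-fold higher, while ASNS, CEBPG and ATF5 fell and ATF4, DDIT3, TRIB3 and CHAC1 did not pass the test. The count was 3 of 10 higher, against 12.2% of all tested genes, and 3 of 10 lower, against 26.7%. The 10 genes were chosen with earlier results of these data known, so this comparison is a description. The median change over the 10 genes was -0.03, against -0.21 over all tested genes. Values of the 6 genes that passed did not overlap between the groups, and those of the other 4 did. By this measure 24.1% of all tested genes lay above both controls after induction and 45.8% below, 70.0% together, so a lack of overlap was common. In bulk RNA, fewer cells with a transcript and less of it per cell cannot be told apart. The count of lower genes was 3 in the fit as designed and 1 without control 1, without induced 1 or without induced 2, the gene left being ASNS each time. All 3 higher genes passed with any library left out.

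**Figure D1:**
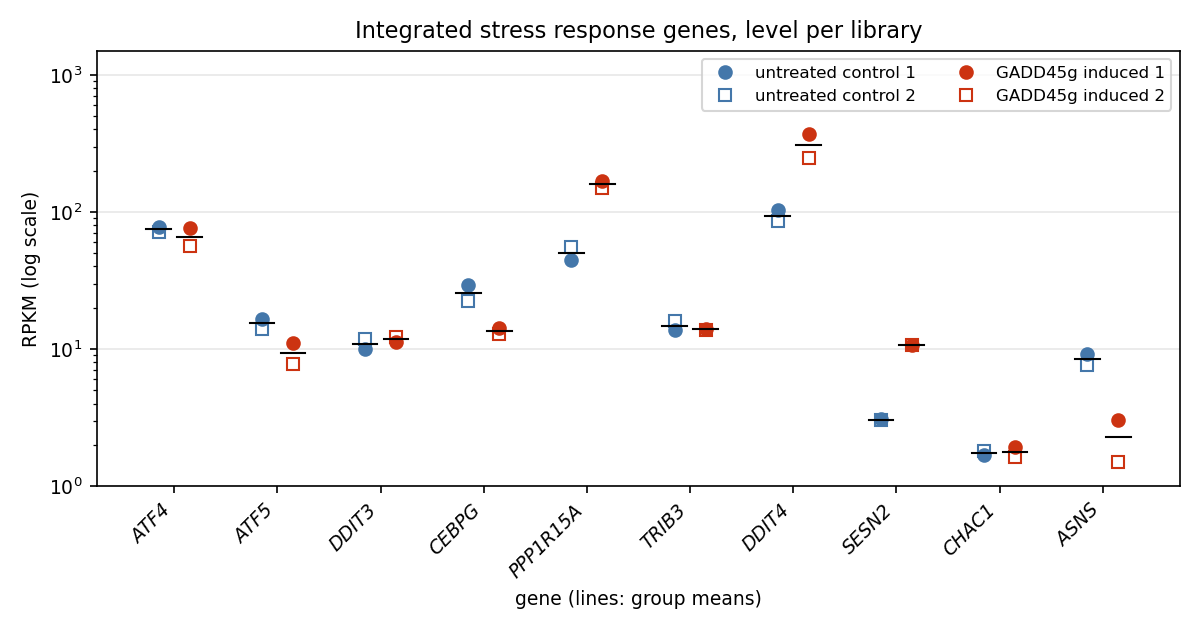
RPKM (log axis) of the 10 genes in each library: blue for untreated controls, red for GADD45g induced, filled circles for replicate 1, open squares for replicate 2, and black lines for group means. The induced points of PPP1R15A, DDIT4 and SESN2 lie above both controls and those of ASNS, CEBPG and ATF5 below, while the points of ATF4, DDIT3, TRIB3 and CHAC1 overlap.

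Among the transcription factors, ATF4, the effector of the response, was at 78.2 and 70.9 RPKM in the controls and 76.0 and 56.0 RPKM after induction. Only induced 2 was lower than the other libraries by more than the gap between the controls, and the groups overlapped. Its log2 change was -0.19 (95% interval -0.75 to 0.37; limma adjusted p = 0.595). The values rested on 2250 to 3691 reads per library, so counting error was small beside the gap between the induced libraries. The sign of the ATF4 difference depended on the scaling, from -0.11 after quantile normalization to 0.08 after TMM scaling, and it was 0.03 without induced 2; none of the 14 alternatives gave a call.

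DDIT3, which encodes the pro-apoptotic factor CHOP, was at 9.99 and 11.9 RPKM in the controls and 11.3 and 12.2 RPKM after induction. The groups overlapped, since control 2 lay above induced 1. Its log2 change was 0.10 (95% interval -0.39 to 0.59; limma adjusted p = 0.758), and no alternative gave a call (log2 change -0.02 to 0.35). In the unscaled fit the interval leaves room for a rise of up to 0.59 or a fall of up to 0.39 on this scale. It leaves none for a change as large as that of PPP1R15A. Under the 3 scalings the log2 change was 0.27 to 0.35, so the upper bound depends on the scaling. In the GENCODE release 29 annotation 355 of the 1307 exon bases of DDIT3 also belong to MARS1, a tRNA synthetase gene on the opposite strand. MARS1 was at 16.7 and 17.8 RPKM in the controls and 25.0 and 21.2 RPKM after induction (limma adjusted p = 0.188, and 0.0404 after TMM scaling). Strand was not given, so reads in the shared bases cannot be assigned to either gene.

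CEBPG, a C/EBP protein without a strong activation domain of its own that pairs with ATF4, was at 29.2 and 22.3 RPKM in the controls and 14.3 and 12.9 RPKM after induction. Both induced libraries were below both controls. The log2 change was -0.86 ± 0.24 (SE; limma adjusted p = 0.0142), a 1.89-fold lower mean. ATF5, a close relative of ATF4 whose translation is likewise controlled through eIF2, went from 16.7 and 14.0 RPKM to 11.0 and 7.72 RPKM (log2 change -0.67 ± 0.24, limma adjusted p = 0.0480). Here too the groups did not overlap, but the margin to the threshold was small.

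Neither of these calls held in every setting. CEBPG missed the threshold after TMM scaling (adjusted p = 0.0654), after the median change was shifted to 0 (0.0515) and with no filter on low values (0.0612). It also missed it without control 1 (0.0773), without induced 1 (0.0523) and without induced 2 (0.0921). ATF5 passed in 5 of 14 alternatives and missed the threshold after all 3 scalings (0.125 to 0.196) and without any one of the 4 libraries (0.0535 to 0.336). The direction of both genes was the same in all 14 alternatives. ATF5 shares 626 of 2954 exon bases with NUP62, a nuclear pore gene on the opposite strand, which was at 16.8 and 21.2 RPKM in the controls and 16.2 and 13.5 RPKM after induction. MARS1 and NUP62 were named for this overlap, outside the rule for named genes.

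Of the regulators, PPP1R15A (GADD34), the subunit that directs protein phosphatase 1 to eIF2 and so ends the translational block, was at 44.4 and 55.1 RPKM in the controls and 168 and 150 RPKM after induction. The lower induced value was above the higher control. The mean was 3.20-fold higher (log2 change 1.66 ± 0.25, limma adjusted p = 0.000480). DDIT4 (REDD1), which inhibits mTORC1 and is also known to respond to hypoxia and glucocorticoids, went from 102.8 and 85.4 RPKM to 371 and 249 RPKM, a 3.29-fold higher mean (log2 change 1.69 ± 0.28, limma adjusted p = 0.000915). The induced libraries differed from each other more than the controls did, but both lay above them.

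SESN2 (sestrin 2), a leucine sensor upstream of mTORC1 that is also a known p53 target, showed the smallest spread of the 10 genes. It was at 3.07 and 3.05 RPKM in the controls and 10.7 and 10.6 RPKM after induction. The mean was 3.48-fold higher (log2 change 1.52 ± 0.21, limma adjusted p = 0.000282). DDIT4 shares 847 of 2058 exon bases with the antisense gene DDIT4-AS1, which was at 119 and 122 RPKM in the controls and 374 RPKM in induced 2. Reads in the shared bases cannot be assigned to either gene. PPP1R15A and SESN2 had no overlapping gene in that annotation. PPP1R15A, DDIT4 and SESN2 passed in all 14 alternatives, with limma adjusted p of at most 0.0386.

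TRIB3, a pseudokinase that CHOP and ATF4 are known to induce and that restrains both, was at 13.7 and 16.0 RPKM in the controls and 14.0 and 13.9 RPKM after induction. Both induced values lay between the controls. The log2 change was -0.08 (95% interval -0.57 to 0.41; limma adjusted p = 0.810), and its sign turned to positive under each of the 3 scalings (0.08 to 0.18) and without control 2 (0.03), with no call.

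CHAC1, the enzyme that cleaves glutathione and a gene often used as a readout of ATF4 and CHOP, had the lowest group means of the 10, at 1.69 and 1.80 RPKM in the controls and 1.94 and 1.62 RPKM after induction. The induced libraries lay on either side of the controls. These values came from 53 to 75 reads, and the 95% counting interval of the lowest, induced 2, ran from 1.21 to 2.12 RPKM, which holds the other 3 values (intervals cover counting error only). The log2 change was 0.01 (95% interval -0.46 to 0.49; limma adjusted p = 0.965). The log2(RPKM + 1) scale compresses differences at such low levels.

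ASNS, asparagine synthetase and a classical ATF4 target, was the member that fell furthest. It was at 9.24 and 7.67 RPKM in the controls and at 3.03 and 1.50 RPKM after induction, on 773, 536, 255 and 107 reads. Both induced libraries were below both controls, and they differed from each other by more than the controls did. The mean was 3.73-fold lower (log2 change -1.57 ± 0.26, limma adjusted p = 0.000911). ASNS passed in all 14 alternatives, with an adjusted p of 0.0494 with no filter on low values and at most 0.0267 otherwise. In the GENCODE annotation ASNS shares 1985 of its 4455 exon bases with AC079781.5, a transcript on the same strand, and reads in these bases cannot be assigned to either. The 3 genes with a CARE match in the promoter windows did not move together: ASNS and CEBPG fell and CHAC1 did not pass.

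**Figure D2:**
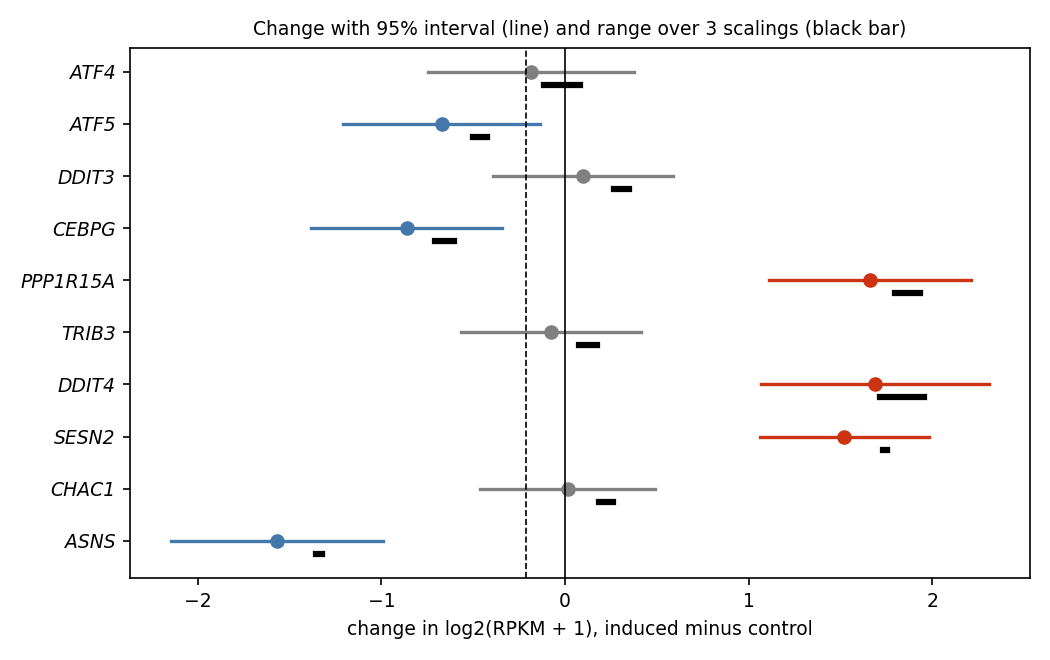
Change in log2(RPKM + 1), induced minus control, for each of the 10 genes (points, red for higher, blue for lower and grey for not called), with the limma 95% interval (coloured line) and the range after TMM, quantile and median-shift scaling (black bar); the dashed line is the median of all tested genes, -0.21. The intervals of PPP1R15A, DDIT4 and SESN2 lie right of 0.9 and that of ASNS left of -0.9, while the scaled values of CEBPG and ATF5 lie nearer to 0 than the unscaled ones.

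The order of the 10 levels changed with induction. In the controls it ran from DDIT4 (94.1 RPKM) through ATF4 (74.5), PPP1R15A (49.8), CEBPG (25.7), ATF5 (15.4), TRIB3 (14.8), DDIT3 (10.9), ASNS (8.46) and SESN2 (3.06) to CHAC1 (1.75 RPKM). ATF5 and TRIB3 were the only neighbours in that order whose values overlapped. After induction PPP1R15A (159 RPKM) stood above ATF4 (66.0 RPKM), and SESN2 (10.6 RPKM), formerly below ASNS, stood above it (2.27 RPKM). In the induced order TRIB3 and CEBPG, SESN2 and ATF5, and ASNS and CHAC1 overlapped as neighbours.

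Differences were also taken within libraries that share a title form. In the pair with the suffix, where the epithelial markers were near 0, the log2 difference was 1.43 for PPP1R15A, 1.53 for DDIT4, 1.52 for SESN2, -1.79 for ASNS, -0.74 for CEBPG and -0.78 for ATF5. In the pair without it the differences were 1.90, 1.84, 1.52, -1.35, -0.98 and -0.56 in the same order. Since the values of these 6 genes do not overlap between the groups, the same sign in both pairs follows and adds nothing; the values give the sizes. ATF4 differed by -0.33 with the suffix and -0.04 without it, and DDIT3 by 0.03 and 0.16.

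The lists that follow are read against the shares over all tested genes, 12.2% higher and 26.7% lower. The lists too were chosen with earlier results of these data known. The list of eIF2, its kinases, its exchange factor eIF2B and the phosphatases also held GCN1, IMPACT, DELE1, OMA1, DNAJC3 and NCK1. Of its 22 tested genes 8 fell and 0 rose (limma, and 11 lower and 0 higher at an unadjusted p under 0.05), with a median of -0.50. This share of lower genes was not far above that of all tested genes. The 4 kinases that start the response did not pass. Their log2 changes were -0.44 for EIF2AK1 (the heme- and mitochondria-linked kinase HRI), 0.08 for EIF2AK2 (PKR, which senses double-stranded RNA), 0.30 for EIF2AK3 (PERK, in the endoplasmic reticulum) and 0.13 for EIF2AK4 (GCN2, which senses uncharged tRNA). PPP1R15B, the constitutive counterpart of PPP1R15A, was at 26.9 and 26.9 RPKM in the controls and 24.9 and 30.1 RPKM after induction.

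Those that fell included subunits of eIF2 and eIF2B and parts of the mitochondrial relay to HRI. EIF2B3 went from 8.41 ± 0.34 to 2.95 ± 0.25 RPKM (SD, n = 2; limma adjusted p = 0.000974) and EIF2S3, the gamma subunit of eIF2, was 2.24-fold lower (adjusted p = 0.00503). The protease OMA1 fell from 6.42 and 3.96 RPKM to 1.32 and 1.26 RPKM (adjusted p = 0.00119, and 0.0518 with no filter on low values). Its substrate DELE1 was 1.98-fold lower (adjusted p = 0.0118). DELE1 passed in 9 of 14 alternatives, and not after TMM or quantile scaling, with no filter, without control 2 or without induced 1 (limma adjusted p up to 0.125). PPP1CC, a catalytic subunit of protein phosphatase 1, was 2.83-fold lower. The count of lower genes was 5 and 6 under the 3 scalings, 4 without induced 1, 5 without induced 2 and 4 with no filter on low values. EIF2AK1 to EIF2AK4, PPP1R15B and DELE1 were named after their values were seen.

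Among basic leucine zipper partners and C/EBP relatives 9 of 15 tested genes rose and 0 fell (limma; at an unadjusted p under 0.05 9 were higher and 1 lower, and voom on recovered reads called 1 lower), with a median of 0.80. ATF3, a target of ATF4 that pairs with CHOP and JUN, went from 1.78 and 1.35 RPKM to 29.2 and 22.9 RPKM (log2 change 3.39 ± 0.23, adjusted p = 3.48e-06). JUN, JUND and FOSL2, AP-1 subunits, were 18.9-fold, 6.40-fold and 4.11-fold higher. CEBPB, a dimer partner of CHOP, rose from 42.8 and 57.3 RPKM to 204 and 175 RPKM (adjusted p = 0.000258; named after its values were seen). Without control 1 the count of higher genes was 5, as it was with no filter on low values. CEBPA was not analysed here, as it is listed in 3 of the 4 files.

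Genes of amino acid supply, a core ATF4 programme, moved both ways. Of 10 tested synthesis genes 6 fell and 1 rose, with a median of -0.80. PHGDH and PSAT1, the first and second enzymes of serine synthesis, went from 13.8 and 13.0 RPKM to 3.46 and 2.43 RPKM (log2 change -1.88 ± 0.23, adjusted p = 0.000120) and from 38.4 and 23.7 RPKM to 8.03 and 4.64 RPKM (-2.13 ± 0.30, adjusted p = 0.000318). SHMT2, the mitochondrial serine hydroxymethyltransferase, and ALDH18A1, of proline synthesis, were 2.28-fold and 2.55-fold lower. The exception was CTH, cystathionine gamma-lyase, which makes cysteine and rose from 4.96 and 4.49 RPKM to 9.82 and 13.4 RPKM (adjusted p = 0.00301). Without induced 2 CTH no longer passed, and no gene of the list was then higher. CTH was named after its values were seen.

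Amino acid transporters also moved both ways. Of 8 tested genes 2 rose and 4 fell, with a median of -0.59. The 2 that rose encode the chains of the cystine importer: SLC7A11 went from 24.9 and 13.9 RPKM to 83.7 and 75.8 RPKM (log2 change 2.04 ± 0.29, adjusted p = 0.000327) and SLC3A2 from 26.2 and 22.0 RPKM to 84.0 and 55.3 RPKM (1.47 ± 0.27, adjusted p = 0.00154). SLC7A5, the leucine transporter that also pairs with SLC3A2, fell from 20.9 and 23.8 RPKM to 4.41 and 2.80 RPKM (-2.36 ± 0.24, adjusted p = 4.73e-05), and SLC43A1, another carrier of large neutral amino acids, was 4.18-fold lower. These 4 genes passed in all 14 alternatives.

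**Figure D3:**
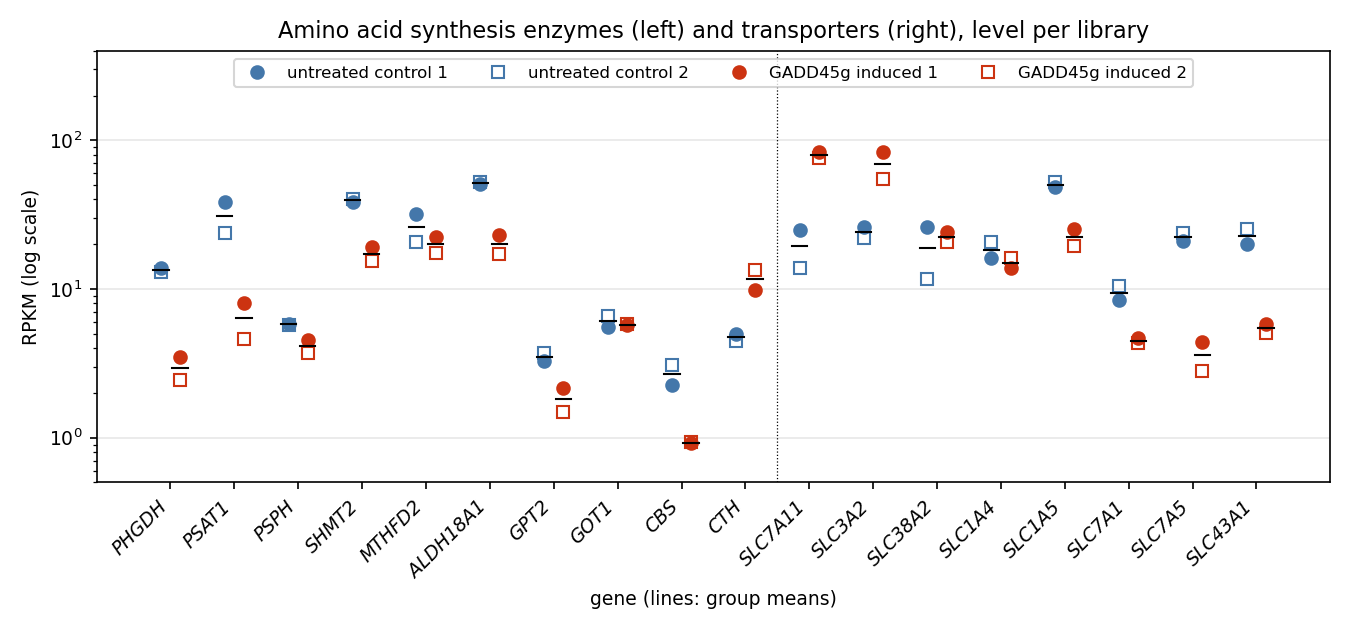
RPKM (log axis) per library of tested amino acid synthesis enzymes (left of the dotted line) and transporters (right), with symbols as in the plot of the 10 genes and black lines for group means. PHGDH, PSAT1, SLC7A5 and SLC43A1 lie lower in both induced libraries, and CTH, SLC7A11 and SLC3A2 lie higher in both.

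Cytosolic aminoacyl-tRNA synthetases, which ATF4 is known to raise when amino acids are short, fell in 6 of 12 tested cases and rose in 0 (limma; at an unadjusted p under 0.05 6 were lower and 0 higher; median -0.57). LARS1, for leucine, went from 38.9 and 38.5 RPKM to 6.95 and 8.59 RPKM (log2 change -2.19 ± 0.23, adjusted p = 5.10e-05). WARS1, EPRS1 and IARS1 were 2.41-fold, 2.38-fold and 2.38-fold lower. After scaling 4 were lower and 1 or 2 higher.

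Other targets attributed to ATF4 or CHOP went both ways, with 9 of 19 tested genes higher, 4 lower and a median of 0.30. PMAIP1 (NOXA), a BH3-only death gene, rose from 10.2 and 4.08 RPKM to 83.9 and 60.5 RPKM (adjusted p = 5.72e-05), and the stress cytokine GDF15 and the autophagy receptor SQSTM1 were 11.3-fold and 4.35-fold higher; all 3 also respond to other pathways. VEGFA was 3.33-fold higher. ERO1A, an oxidase of the endoplasmic reticulum known as a CHOP target, was 2.52-fold higher (adjusted p = 0.00174), while another CHOP target, the death gene BCL2L11 (BIM), was 1.62-fold lower (adjusted p = 0.0361). BCL2L11 passed in 6 of 14 alternatives, and not after any of the 3 scalings (limma adjusted p = 0.115 to 0.181), with no filter or without any one of the 4 libraries. EIF4EBP1, the ATF4 target that restrains cap-dependent translation, fell from 78.7 and 82.0 RPKM to 36.5 and 19.1 RPKM (adjusted p = 0.00209, and 0.0621 with no filter on low values). The count of lower genes was 2 under each of the 3 scalings and without any one library. It was 1 with no filter on low values. TNFRSF10B, also of this list, was called higher, and so it was under each of the 3 scalings (limma adjusted p = 0.00496 to 0.00835). It was not called without any one of the 4 libraries. ERO1A, BCL2L11, EIF4EBP1 and TNFRSF10B were named after their values were seen.

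**Figure D4:**
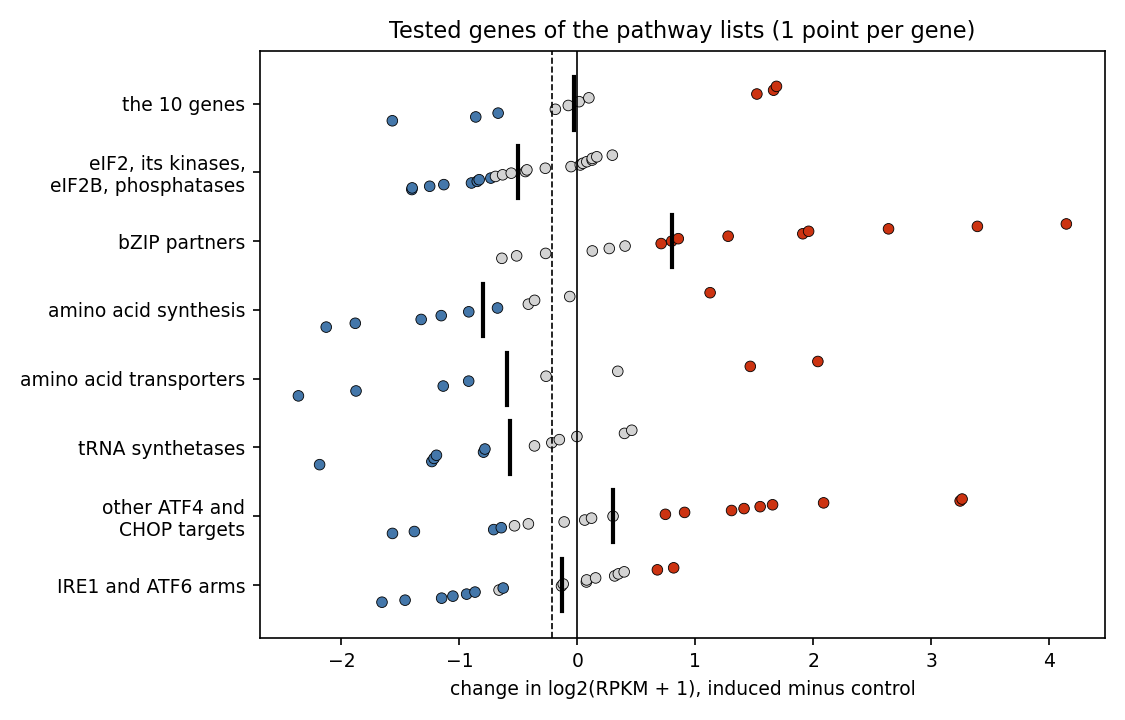
Change in log2(RPKM + 1), induced minus control, of each tested gene in 8 lists (points, red for called higher, blue for called lower, grey for not called), with the list median as a thick bar and the median of all tested genes (-0.21) as a dashed line. The medians of the bZIP partners (0.80) and of other ATF4 and CHOP targets (0.30) lie right of 0, and those of amino acid synthesis (-0.80), transporters (-0.59), tRNA synthetases (-0.57) and the eIF2 machinery (-0.50) lie left of the dashed line.

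The other branches of the unfolded protein response, through IRE1 and ATF6, fold and clear proteins of the endoplasmic reticulum and share PERK's trigger. Of 18 tested genes 7 fell and 2 rose, with a median of -0.13. The 2 that rose were ERN1, which encodes IRE1, and SYVN1. Under the 3 scalings both were called higher too (limma adjusted p = 0.00627 to 0.00875 and 0.00521 to 0.00714). The disulfide isomerases PDIA4 and PDIA6 were 2.83-fold and 3.21-fold lower, and the chaperones HYOU1 and HSP90B1 2.19-fold and 1.92-fold lower. HSPA5 (BiP), the chaperone most used as a marker of this stress, was at 145 and 133 RPKM in the controls and 92.0 and 83.1 RPKM after induction and did not pass (log2 change -0.66, limma adjusted p = 0.0517). HSPA5 was called lower in 4 of 14 alternatives: with the replicate block (limma adjusted p = 0.0191), a robust prior, a filter at 5 RPKM, and voom. XBP1, the messenger that IRE1 splices, was at 30.8 and 29.8 RPKM in the controls and 31.0 and 33.0 RPKM after induction (adjusted p = 0.817). The lower count was 3 without control 1 or induced 2, 4 without control 2, 3 after TMM scaling and 3 with no filter on low values. The higher count was 0 without control 1, induced 1 or induced 2 and with no filter. HYOU1 was not called without induced 2 (adjusted p = 0.0700) or with no filter on low values (0.0517), and HSP90B1 was not called after TMM scaling (0.0538), without control 1 (0.0568) or without induced 1 (0.0877). ERN1, SYVN1, HSPA5 and XBP1 were named after their values were seen.

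The genes whose pattern over the 4 libraries was nearest to that of ATF4, by Euclidean distance between log2(RPKM + 1) values centred on each gene's mean, were AAMP (0.0394), EZR (0.0435) and GFER (0.0517). Those nearest to DDIT3 were RBKS (0.0291), TTF1 (0.0488) and C8orf76 (0.0499). Their limma adjusted p between groups ran from 0.582 to 0.883, which follows from their being picked for likeness to genes that were not called. With 4 libraries, such likeness to a gene that varies little is a description of small deviations.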

How the data were processed

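RNA of 2 untreated and 2 doxycycline-treated MOLM-13 cultures was sequenced. Groups were taken from the titles and treatment labels, and replicate numbers from the title suffix. The authors deposited a table of RPKM by Ensembl ID for each library, per the file headers. TopHat, Cuffnorm, Cuffdiff and the build hg19 are named in the submitters' processing notes, without versions or roles. The labels do not state strand, RNA selection or read length. The file of induced 1 ended within a row, so the 27332 IDs complete in all files were used, and values of 1 symbol were summed.

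The reads per library, 15683931 to 18895469, were recovered first, from values at annotated gene lengths. The values of 98.8% of the 11048 IDs of tested genes were then whole multiples of 1 read. The tolerance was 0.005 reads, and up to 0.02 at high counts. For 6681 IDs this held at the annotated length, and for the others a length was searched that made it hold. ATF4, DDIT3, TRIB3 and CHAC1 were among the others, with 20 to 50 lengths that fitted, and the length nearest to the annotated one was used. Counting intervals are exact Poisson at 95%. A mean of 1 RPKM or more was required for testing (10771 genes), and the test ran on log2(RPKM + 1), with limma 3.58.1 in R 4.3.3 (lmFit, eBayes with trend, two-sided, 2 residual and 8.72 prior degrees of freedom). P-values were adjusted by Benjamini-Hochberg over all tested genes, with a threshold of 0.05. RPKM allow no count test as the main result, and voom on the recovered reads (10769 genes) was added after seeing the data. On simulated data of 10771 genes (5 runs) limma recovered 26.4% of log2 changes of 1 and 98.4% of log2 changes of 2. Of the calls in that simulation 4.84% were false. Only a small share of the genes was given a change in each simulated run, while 4185 of 10771 genes were called in the libraries. The adjusted p depends on that share, so these percentages do not carry over to the libraries. What they would be there was not tested.

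Genes named were the 10 genes, from each list up to 4 tested genes ranked by adjusted p, the 3 genes nearest to ATF4 and to DDIT3, and GADD45G; others are marked where they are given. The 10 genes and the lists were chosen with earlier results of these data known. Alternatives covered pseudocounts of 0.1 and 5, no filter or a mean of 5 RPKM, TMM, quantile and median-shift scaling, voom, each library left out, a block for the replicate number, and a robust prior. With 1 library left in a group, that library is assumed to vary like the other group. Promoter windows came from RefSeq on GRCh38.p14, another build than that of the files, and no coordinates were taken from the files.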

Additional observations from a re-analysis of the deposited data

How the results depend on the processing

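The 3 higher genes of the 10 (PPP1R15A, DDIT4, SESN2) and ASNS were called in all 14 alternatives. The count of lower genes was 3, and 1 with no filter on low values, after TMM scaling and after the median shift, and 1 to 2 with 1 library left out. Over all tested genes 4185 were called, 1314 higher and 2871 lower. With no filter these were 2462, 823 and 1639, and with 1 library left out 2597 to 3582, 798 to 1133 and 1766 to 2449, where fewer samples entered. Scaling moved the split, to 1967 higher and 2022 lower after TMM, 1874 and 2080 after quantile normalization and 1877 and 2045 after the median shift, so a fall smaller than 0.21 in log2 is not separate from the shift of all genes. The labels do not say that the title suffix pairs libraries. Deviations of libraries with the same form correlated at 0.35, and the epithelial sum also differed by suffix. With the replicate block 4987 genes were called (1594 higher, 3393 lower; 3 and 3 of the 10). Of 790 alternatives for the 57 genes named by the rule 764 kept the call or its absence and 26, in 7 genes, lost the call. Most of the 57 were picked for the smallest adjusted p of their list, which favours a kept call. Genes named outside the rule are not in this tally. Among those, BCL2L11 lost its call under each of the 3 scalings and SESN1 gained one under each. No called gene of the 57 changed sign, while 14 uncalled genes did in 36 alternatives, ATF4, DDIT3, TRIB3 and CHAC1 among them. List counts moved by over 1.5 times in 48 of 280 cases. The cause was not tested. Depth limits CHAC1, at 53 to 75 reads per library.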

Other observations

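Relatives of the 10 genes that were not among them were measured in the same libraries, and 3 of 11 tested rose while 2 fell, against 12.2% and 26.7% of all tested genes. TRIB1, a pseudokinase that directs C/EBP-alpha to degradation and a relative of TRIB3, was at 1.39 and 1.13 RPKM in the controls and 24.2 and 26.1 RPKM after induction, a 20.0-fold higher mean (log2 change 3.54 ± 0.21, limma adjusted p = 1.68e-06). TRIB2 was 7.22-fold higher (limma adjusted p = 2.99e-05). TRIB3 itself stayed between 13.7 and 16.0 RPKM in all 4 libraries. TRIB1 and TRIB2 are thus nearer to the level of TRIB3 after induction than before it, and the difference between the relatives' changes was not tested.

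CHAC2, the constitutive relative of CHAC1, fell from 5.28 and 2.32 RPKM to 0.761 and 0.427 RPKM (limma adjusted p = 0.00233, and 0.0849 with no filter on low values). CREB3, a membrane-bound transcription factor of the secretory pathway, was 2.41-fold higher (limma adjusted p = 0.00298). SESN1, the relative of SESN2, was at 4.84 and 3.49 RPKM in the controls and 5.89 and 6.80 RPKM after induction (limma adjusted p = 0.0952, and 0.0216 to 0.0278 under the 3 scalings, each a call; named after its values were seen).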
